A study of Macaca mulatta with 24 samples.

Results

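The combined treatment of testosterone and a Western-style diet (T+WSD) was given to 6 of the 24 female rhesus macaques in this study of visceral white adipose tissue, and their omental RNA was set against that of the other 18 animals. The 6 T+WSD animals were members by their group label alone. Control animals (C) ate monkey chow, T animals ate chow and carried testosterone implants that mimic hyperandrogenemia, WSD animals ate the high-fat diet, and T+WSD animals had both treatments. There were 6 animals in each of the 4 groups, the animals without testosterone carried cholesterol implants, and treatment lasted 3 years. The labels list the animals as 4 years old without saying at which point, while the study's methods give an older, post-pubertal age at biopsy, and each of the 24 libraries came from a biopsy of a different animal. The 6 animals per group were picked from a larger cohort as representative of it, so the spread is that of picked animals, and because whole tissue was sequenced, fewer cells of a type and less RNA per cell cannot be told apart.

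Omental white adipose tissue stores triglyceride in adipocytes and also holds macrophages, vessels, fibroblasts and, on its peritoneal surface, a sheet of mesothelial cells that share keratins and junction proteins with epithelia. Adipocytes take up and synthesize fatty acids, make cholesterol from acetyl-CoA when sterols are scarce, and secrete leptin. Macrophages that gather around lipid-laden adipocytes clear lipid and store iron in ferritin.

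Read counts per library ran from 6899185 to 28270776 (6899185 to 21015713 in T+WSD), and 15207 genes passed the count filter, 12414 of them with a symbol. In 8 libraries, 2 in each group, between 9.92% and 54.7% of the reads fell on ENSMMUG00000038258, an identifier with no symbol here, while the other 16 had 0.879% to 2.51% there. These 8 are called the library batch. Among them was T+WSD8, the library with the fewest counts. Levels are counts scaled to 1000000 reads per library (CPM) on library sizes scaled by edgeR's TMM factors. Adipocyte markers summed to 10186 to 14662 CPM in T+WSD, 1557 to 10778 in C, 6234 to 15977 in T and 6711 to 13601 in WSD, and none of the 10 was at 0 throughout.

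Against the equal-weight mean of C, T and WSD, 1074 genes (7.06% of those tested) passed an adjusted p below 0.05 with a fold above 1.5 in edgeR's quasi-likelihood test, 649 of them higher (4.27%) and 425 lower (2.79%) in T+WSD. Of these 1074 genes, 1073 had the same sign against each of the 3 groups, as did 10233 of all 15207 genes tested. A shared sign follows largely from the selection, because the 1074 were called against the mean of those same groups. The pairwise comparisons, which share the 6 T+WSD animals, called 718 genes higher (4.72%) and 804 lower (5.29%) than C, 356 higher (2.34%) and 218 lower (1.43%) than T, and 66 higher (0.434%) and 58 lower (0.381%) than WSD. WSD was the group whose mean lay nearest to T+WSD for 69.0% of the 1074 genes, compared with 43.9% of all genes tested. Among the genes called lower the share was 78.1%, and among those called higher it was 63.0%. Where C, T and WSD were compared among themselves, 7 genes (0.0460%) passed an adjusted p below 0.05. Of these 7, 2 were among the 1074, which made up 7.06% of the genes tested. At an unadjusted p below 0.05 the counts were 2268 of all genes (14.9%) and 248 of the 1074 (23.1%).

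CCDC136, SEMA5B, FTL, INPP5F and ABCC5 were among the genes that set T+WSD apart from every other group, all of them higher. A gene was called so where its fold exceeded 1.5 in the same direction against C, T and WSD and the largest of its 3 pairwise p-values, adjusted over all 15207 genes, stayed below 0.05, and 6 genes (0.0395%) did so upward and 0 (0.00%) downward. At an unadjusted p below 0.05 in each of the 3 comparisons, whatever the fold, 598 genes (3.93%) were higher and 759 (4.99%) lower, and DESeq2, at the same thresholds, called 45 higher and 16 lower, the 6 among them. In edgeR the largest of the 3 pairwise p-values, adjusted in this way, lay between 0.0396 and 0.0474 for the 6 genes. In the pairwise comparisons taken singly, the adjusted p of the named genes was at most 0.0176, that of SEMA5B against WSD. Each log2 fold change that follows is T+WSD minus the mean of the other 3 groups, with its standard error, unless a group is named.

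FTL, the light chain of the iron store ferritin, was the most highly counted of these genes. Its mean was 696 ± 113 CPM (SD, n = 6) in T+WSD, 353 ± 77.98 CPM (SD, n = 6) in C, 379 ± 38.9 CPM (SD, n = 6) in T and 385 ± 63.7 CPM (SD, n = 6) in WSD. The lowest T+WSD animal had 541 CPM and the highest of the other 18 had 493, and the log2 fold change was 0.90 ± 0.11 (adjusted p = 6.98e-05). Ferritin genes have many near-identical copies in primate genomes, so reads could have been shared between copies.

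SEMA5B, a membrane-bound semaphorin best known from axon guidance, measured 15.9 to 23.3 CPM (median 21.3) in T+WSD against 4.84 to 9.36 CPM (median 7.199) in C, 7.59 to 13.02 CPM (median 8.74) in T and 6.098 to 12.9 CPM (median 9.86) in WSD. No other animal reached the lowest T+WSD value, and the log2 fold change was 1.24 ± 0.15 (adjusted p = 6.98e-05). INPP5F, a phosphoinositide phosphatase of endosomes, measured 72.2 to 106 CPM (median 98.8) in T+WSD, 41.1 to 68.7 CPM (median 56.3) in C, 44.4 to 63.2 CPM (median 46.5) in T and 37.9 to 61.2 CPM (median 53.1) in WSD. The groups did not overlap, although T+WSD12 lay close to the highest control, and the log2 fold change was 0.85 ± 0.10 (adjusted p = 6.98e-05). ABCC5, an export pump for cyclic nucleotides, measured 34.1 to 46.4 CPM (median 43.4) in T+WSD, 18.7 to 32 CPM (median 22.8) in C, 18.2 to 26.9 CPM (median 23.3) in T and 19.1 to 26.8 CPM (median 20.7) in WSD. Its lowest T+WSD animal stood just above the highest control, with a log2 fold change of 0.84 ± 0.11 (adjusted p = 0.000118).

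CCDC136, which encodes a coiled-coil protein, rose the most of these genes and was the most uneven. It measured 3.26 to 27.98 CPM (median 6.29) in T+WSD, where T+WSD8 was highest, and 0.758 to 2.19 CPM (median 1.31) in C, 0.747 to 1.796 CPM (median 0.968) in T and 0.407 to 2.21 CPM (median 1.32) in WSD. Counts in single libraries were as low as 3 for this gene, and its log2 fold change was 2.86 ± 0.35 (adjusted p = 6.98e-05). Against the single groups the log2 fold changes were 2.72 against C, 3.08 against T and 2.79 against WSD for CCDC136, and 0.98 against C, 0.88 against T and 0.85 against WSD for FTL.

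**Figure D1:**
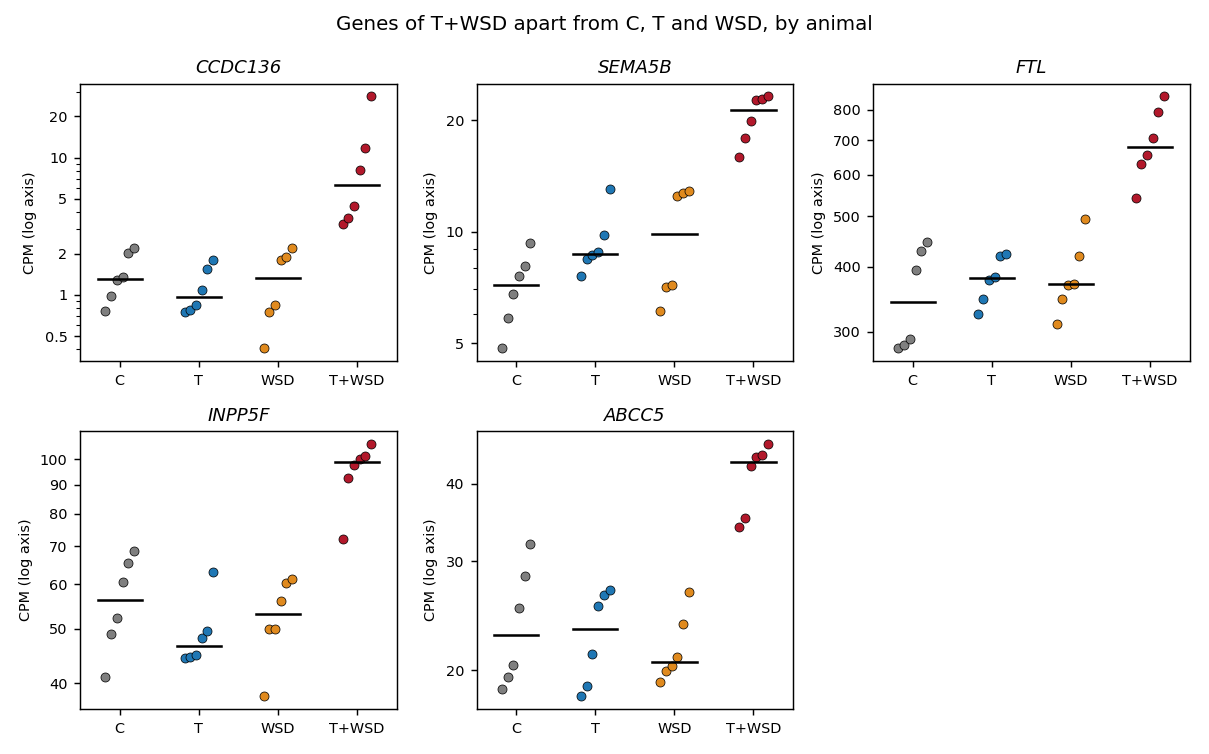
Levels of 5 of the 6 genes apart from every other group, in CPM on log axes, with 1 point per animal (6 in each of C, T, WSD and T+WSD) and a bar at each group's median. In all 5 panels the 6 T+WSD animals lie above the other 18, and FTL runs from 541 to 849.8 CPM in T+WSD.

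The count of genes apart from every group hung on single animals, while each gene's difference from the mean of the 3 groups did not. Leaving out 1 animal at a time gave 0 to 24 such genes, with 0 in 10 of the 24 fits (without C1, T13, T17, T18, WSD19, WSD20, WSD24, T+WSD7, T+WSD8 or T+WSD10), 1 without C2, 3 without C6, T15 or T+WSD9, 24 without WSD21 and 4 to 8 in the rest. FTL was called in 14 of the 24 fits, INPP5F and ABCC5 in 9 each, CCDC136 in 8 and SEMA5B in 6. Against the mean of the 3 groups all 6 genes stayed called in all 24 fits. They stayed called also in the 16 libraries outside the batch, with log2 fold changes of 1.22 for SEMA5B (adjusted p = 0.00919), 0.86 for FTL (adjusted p = 0.0166) and 2.05 for CCDC136 (adjusted p = 0.0166). Within the 8 batch libraries, 2 per group, none of the 5 named genes was called, and the same values were 1.38, 1.03 and 4.20 (adjusted p = 0.224, 0.302 and 0.168).

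A second set of genes was higher in T+WSD than in every group by the fitted folds but did not pass the test against all 3: STMN2, NRCAM, RSPO3, UCHL1, TTN and FMN1. NRCAM, STMN2 and UCHL1 are best known from neurons, as an adhesion molecule, a microtubule regulator and a deubiquitinase. NRCAM measured 18.3 to 113 CPM (median 69.4) in T+WSD, 0.80 to 10.8 CPM (median 1.45) in C, 0.781 to 2.596 CPM (median 1.62) in T and 0.915 to 42.9 CPM (median 5.54) in WSD. The groups overlapped through WSD21, whose level exceeded that of T+WSD12, and the log2 fold change was 4.15 ± 0.51 (adjusted p = 6.98e-05), with 2.54 against WSD (adjusted p = 0.063). STMN2 was nearly absent from C and T, with 0 to 2 counts per library, while WSD had 1 to 21 counts and T+WSD 2 to 103. In T+WSD, 5 animals had 29 or more counts and T+WSD12 had 2, and with an adjusted p of 5.19e-05 the gene passed the test, although at such counts the fitted fold depends on the prior count and is not given here as a size. UCHL1 measured 53.8 to 127 CPM (median 81.3) in T+WSD and 12.1 to 59.9 CPM (median 33.7) in WSD, with a log2 fold change of 1.83 ± 0.25 (adjusted p = 0.000191), and WSD21 and WSD23 exceeded T+WSD11.

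RSPO3, a secreted R-spondin that amplifies Wnt signalling, did not overlap between T+WSD and the rest. It measured 14.4 to 50.03 CPM (median 21.3) in T+WSD and 2.92 to 13.7 CPM in the other 18 animals, with a log2 fold change of 1.88 ± 0.24 (adjusted p = 0.000144). TTN, which encodes titin of the sarcomere, did not overlap either, at 305 to 619 CPM (median 356) against 47.7 to 207 CPM in the other 18, with a log2 fold change of 1.82 ± 0.26 (adjusted p = 0.000314). FMN1, a formin that nucleates actin filaments, was scarce, at 0.848 to 3.67 CPM (median 1.596) against 0.0898 to 1.13 CPM, and WSD19 lay inside the T+WSD range. Its log2 fold change was 2.43 ± 0.35 (adjusted p = 0.000314). These calls against the mean of the 3 groups held in all 24 fits that left out 1 animal and also outside the batch, where the log2 fold change was 3.90 for NRCAM (adjusted p = 0.0192) and 1.53 for RSPO3 (adjusted p = 0.0173).

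**Figure D2:**
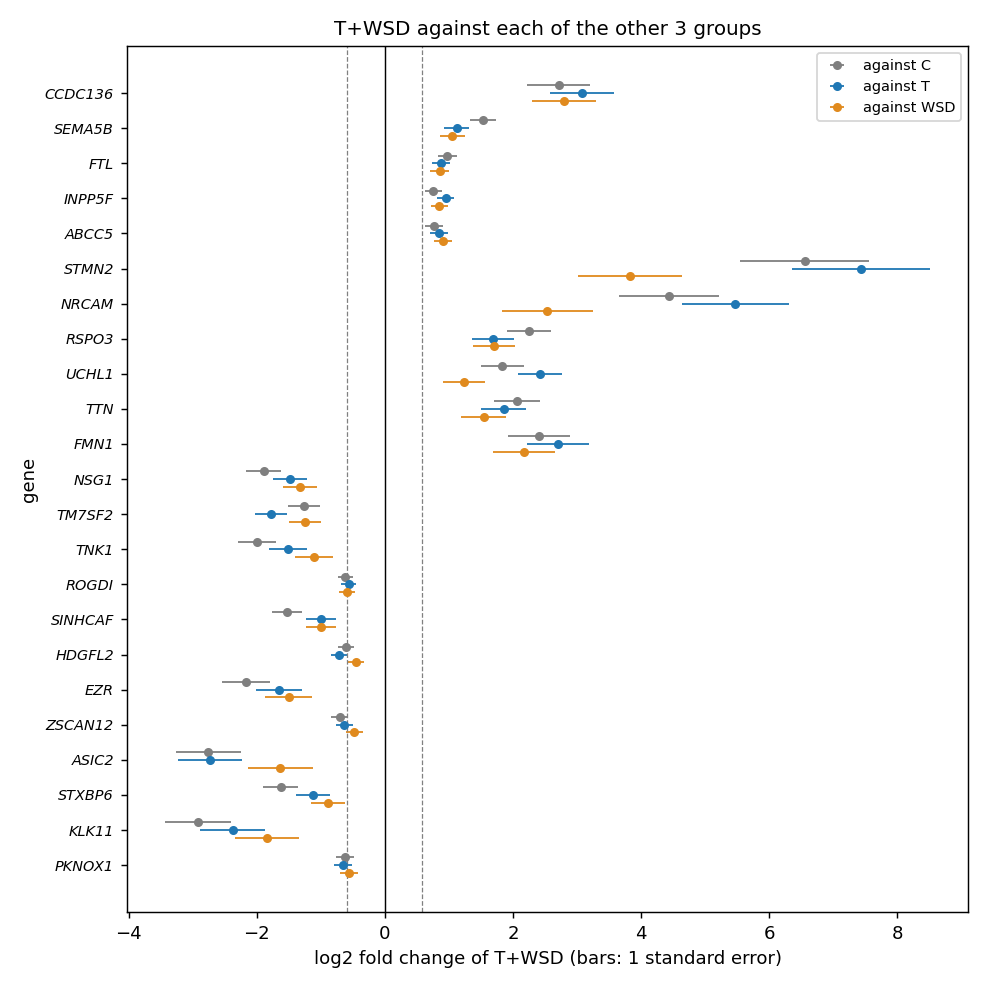
Log2 fold changes of T+WSD against C (grey), T (blue) and WSD (orange) for 23 named genes, with bars of 1 standard error and dashed lines at a fold of 1.5. All points lie on the side of the gene's own direction, which the rule that named them required. The point against WSD is the nearest to 0 for most genes, 2.54 against 5.48 (against T) for NRCAM. The values of STMN2 rest on 0 to 2 counts per library in C and T.

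In the joint test against every group no gene was called lower. NSG1 and TM7SF2 came nearest to it, the largest of their 3 pairwise p-values giving 0.0682 after adjustment. In the pairwise comparisons taken singly, both were called lower than C, T and WSD (adjusted p = 0.0227 against WSD for each). EZR and SINHCAF were likewise called lower than each group singly (adjusted p = 0.037 against WSD for each). NSG1, an endosomal trafficking protein of neurons, measured 5.37 to 12.3 CPM (median 9.43) in T+WSD, 15.2 to 57.2 CPM (median 35.2) in C, 21.1 to 33.9 CPM (median 24.1) in T and 14.99 to 33.97 CPM (median 24.3) in WSD. All 6 T+WSD animals lay below the other 18, with a log2 fold change of -1.57 ± 0.23 (adjusted p = 0.000529). TM7SF2, a sterol reductase of the cholesterol pathway, measured 12.2 to 30.9 CPM (median 17.4) in T+WSD, 32.7 to 59.1 CPM (median 49.8) in C, 44.9 to 97.2 CPM (median 59.3) in T and 26.02 to 66.7 CPM (median 45.4) in WSD. Only the highest T+WSD animal, T+WSD10, overlapped the other groups, and the log2 fold change was -1.43 ± 0.22 (adjusted p = 0.000599).

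EZR encodes ezrin, which ties the plasma membrane of microvilli to actin. It measured 45.5 to 187 CPM (median 119) in T+WSD and 93.2 to 1088 CPM in the other 18, with a log2 fold change of -1.77 ± 0.33 (adjusted p = 0.00233), and the ranges overlapped through WSD21. KLK11, a secreted serine protease, and ASIC2, an acid-sensing ion channel, had the largest falls of this group, with log2 fold changes of -2.38 ± 0.46 (adjusted p = 0.00328) and -2.37 ± 0.45 (adjusted p = 0.00325). The kinase TNK1 fell by 1.54, STXBP6, a syntaxin-binding protein, by 1.21, and SINHCAF, a subunit of the SIN3 histone deacetylase complex, by 1.17 on the log2 scale (adjusted p = 0.00145, 0.00325 and 0.00163). HDGFL2, ROGDI, ZSCAN12 and PKNOX1 lay near the fold of 1.5, with log2 fold changes from -0.61 to -0.59, and their calls were lost in 10, 9, 4 and 2 of the 24 fits without 1 animal. In all 24 fits their adjusted p stayed at or below 0.0128, so it was the fold that crossed the line. Outside the batch NSG1 (-1.45, adjusted p = 0.0319), TM7SF2 (-1.26, adjusted p = 0.0499), TNK1, ROGDI, SINHCAF and STXBP6 stayed called, and EZR (-1.41, adjusted p = 0.0516), KLK11, ASIC2, HDGFL2, ZSCAN12 and PKNOX1 did not.

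Separation without overlap was more common upward and larger in size. In 50 genes (0.329% of those tested) all 6 T+WSD animals lay above the other 18, with a median log2 fold change of 0.96, and in 30 genes (0.197%) all 6 lay below, with a median of -0.40, together 0.526% of the genes tested. Among the 30 were ZFYVE21, an endosomal protein, at 39.8 to 43.1 CPM against 44.3 to 62.4 (log2 fold change -0.36 ± 0.06, adjusted p = 0.000599), and RSL1D1, a nucleolar protein of ribosome assembly, at 68.8 to 79.7 against 80.6 to 114 CPM (-0.39 ± 0.07, adjusted p = 0.00163). PRPF31, a factor of the spliceosome, spanned only 25.2 to 27.6 CPM in T+WSD against 28 to 37.9 in the rest (-0.31 ± 0.06, adjusted p = 0.00236). These differences were below the fold of 1.5 although no animal crossed between the groups. With library totals left unscaled by TMM, 2 genes were without overlap upward and 0 downward.

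**Figure D3:**
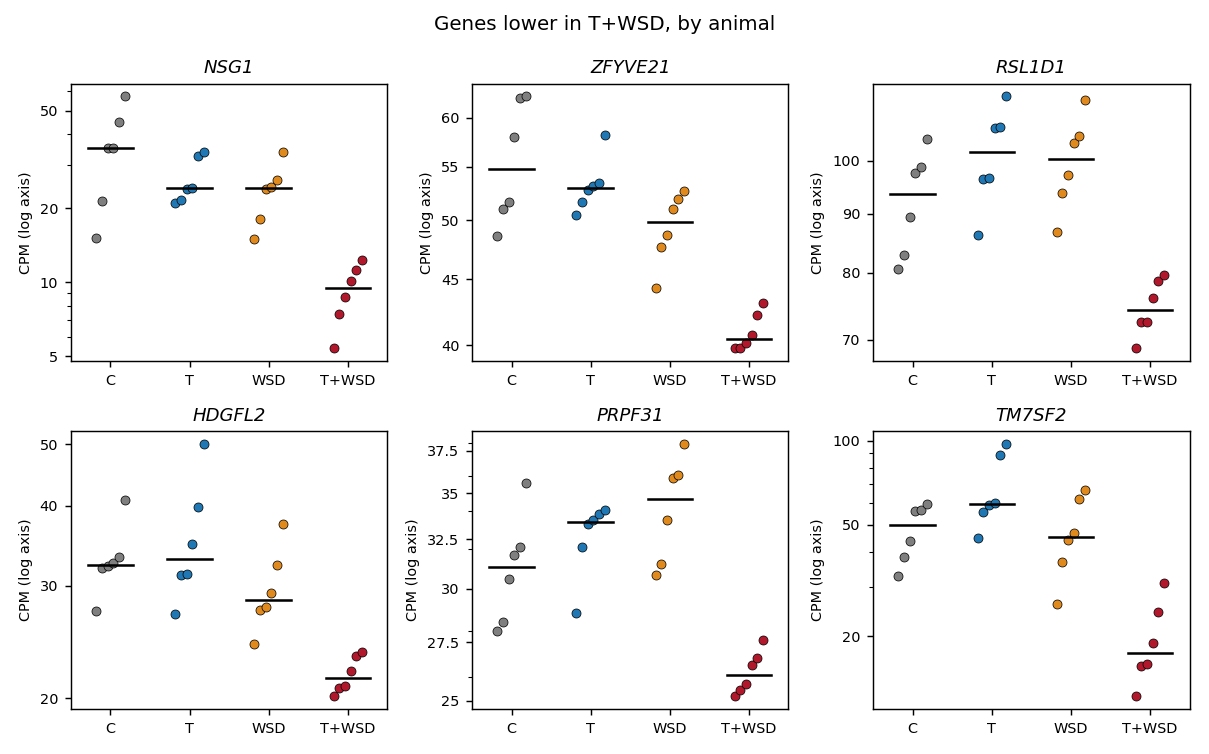
Levels of 6 genes that were lower in T+WSD, in CPM on log axes, with 1 point per animal and a bar at each group's median. In 5 panels the T+WSD animals lie below all others, by a wide gap for NSG1 and a narrow one for PRPF31 (27.6 against 28 CPM), and in TM7SF2 1 T+WSD animal overlaps.

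Gene lists written for this tissue were then counted against the share of all genes called, 4.27% higher and 2.79% lower (7.23% and 8.09% at any fold, and 31.5% in either direction at an unadjusted p below 0.05), and against the median log2 fold change over all genes tested, -0.04. The largest list medians were those of mesothelial markers, keratins and junction genes on the lower side and of lipid-associated macrophage markers on the higher side, leaving out the hepatocyte list, of which 2 members were tested.

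Genes of iron storage and handling held 5 called higher and 0 lower of 14 tested (median 0.09). Beside FTL these were the heavy chain FTH1, at 180.3 to 388 CPM in T+WSD and 115 to 203 in the rest (log2 fold change 0.64 ± 0.13, adjusted p = 0.0041), the transferrin receptor TFRC (0.78 ± 0.16, adjusted p = 0.00406), the copper-dependent ferroxidase HEPH (0.98 ± 0.25, adjusted p = 0.0138) and, named to complete the count after its values were seen, the heme-degrading enzyme HMOX1 (1.07 ± 0.34, adjusted p = 0.038). FTL was the member that separated the groups without overlap. The count was 3 without T+WSD7 and 2 outside the batch.

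Markers of lipid-associated macrophages held 5 called higher and 1 lower of 8 tested, with a median log2 fold change of 1.26. CHIT1, the chitinase of lipid-laden macrophages, measured 139 to 1225 CPM (median 176) in T+WSD and 0.112 to 145 CPM in the other 18, with a log2 fold change of 3.53 ± 0.73 (adjusted p = 0.00461). Its T+WSD values overlapped the rest only through WSD20. The cytokine SPP1 (osteopontin), at 15.5 to 122 against 1.64 to 33.6 CPM, rose by 2.43 ± 0.51 (adjusted p = 0.00486) on the log2 scale, and the integrin ITGAX (CD11c) by 1.75 ± 0.39 (adjusted p = 0.00708). CD9, a tetraspanin, went the other way at -0.88 ± 0.21 (adjusted p = 0.0114). The list summed to 756 to 3146 CPM in T+WSD (median 955) and to medians of 514, 596 and 706 CPM in C, T and WSD, and the ranges overlapped. The count fell to 3 without T+WSD7 and to 0 outside the batch, where the median was 1.18 and 5 of 8 were higher at an unadjusted p below 0.05.

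Of 11 general macrophage markers tested (median 0.27), 1 was called higher, the scavenger receptor MSR1 (log2 fold change 1.62 ± 0.37, adjusted p = 0.00811), and the summed level was 715 to 1307 CPM in T+WSD (median 1137), 295 to 1555 in C (median 917), 486 to 1584 in T (median 820.3) and 576 to 1372 in WSD (median 969). T and NK cell markers (7 tested), B and plasma cell markers (4) and mast cell markers (2) had 0 called by edgeR or DESeq2 and 0 at an unadjusted p below 0.05. Of the chemokines and receptors, 1 of 13 was called higher, CXCL14 (1.29 ± 0.34, adjusted p = 0.0162).

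Matrix proteases split in direction. MMP7 (matrilysin) measured 1.98 to 32.3 CPM (median 4.31) in T+WSD and 0 to 2.53 CPM in the rest, with a log2 fold change of 4.53 ± 0.64 (adjusted p = 0.000314), and WSD23 lay just inside the T+WSD range. Outside the batch it stayed called, at 3.62 (adjusted p = 0.0319). MMP9, a gelatinase, rose by 1.77 ± 0.48 (adjusted p = 0.0182) on the log2 scale, and without T+WSD7 the value was 1.23 and the call was lost (adjusted p = 0.108). MMP19 and the inhibitor TIMP1 fell, by 0.95 and 1.15 on the log2 scale (adjusted p = 0.0155 and 0.0337), TIMP1 losing its call without T+WSD7, T+WSD8, T+WSD10, T+WSD11 or T+WSD12. The list gave 2 higher and 2 lower of 15, and collagen chains gave 1 and 1 of 16.

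Some markers of the vessel wall were higher than the mean of C, T and WSD. Of 12 endothelial markers 4 were called higher and 0 lower (median 0.44), among them the adhesion molecule PECAM1 (0.61 ± 0.12, adjusted p = 0.00457), the guidance receptor ROBO4 (0.65 ± 0.14, adjusted p = 0.0056) and von Willebrand factor, VWF (0.66 ± 0.17, adjusted p = 0.0156). Of 10 markers of smooth muscle and pericytes 4 were called higher, led by the actin-binding protein TAGLN at 549 to 1012 CPM (median 625) against 196 to 558 CPM (1.04 ± 0.20, adjusted p = 0.00338). Against WSD alone PECAM1, ROBO4, VWF and TAGLN were not called (adjusted p = 0.118, 0.134, 0.279 and 0.0502). The endothelial median was 0.68 against C, 0.37 against T and 0.25 against WSD. For smooth muscle and pericyte markers it was 0.65, 0.18 and 0.31. Without T+WSD8 the endothelial count was 0 and the mural count 2. Outside the batch they were 0 and 1, the 1 being TAGLN.

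Mesothelial markers were lower in T+WSD as a list, with 9 of 11 tested called lower and 0 higher and a median log2 fold change of -1.82. They summed to 286 to 3282 CPM in T+WSD (median 1092), 2778 to 40009.7 in C (median 7875), 2909.6 to 18112 in T (median 3955) and 816 to 6238 in WSD (median 4617). The ranges overlapped, T+WSD8 was the lowest of all 24 animals, and none of the 11 markers was at 0 throughout. Keratin 19 (KRT19) measured 5.94 to 64.7 CPM in T+WSD and 26.9 to 450.3 in the rest, with a log2 fold change of -2.26 ± 0.44 (adjusted p = 0.00338), and the transcription factor WT1 had -1.21 ± 0.29 (adjusted p = 0.00985). Without T+WSD8 the count was 5, and outside the batch 0, with a median of -1.48.

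Keratins and epithelial junction genes, a list that shares KRT7, KRT18 and KRT19 with the mesothelial one, had 7 of 13 called lower and 0 higher (median -1.32), including the desmosome protein DSP (-1.74 ± 0.39, adjusted p = 0.00772). Wnt ligands, receptors and inhibitors had 7 of 21 called lower and 2 higher (median -0.63), with the ligands WNT3 (-1.33 ± 0.31, adjusted p = 0.00927), WNT9A (-0.95 ± 0.21, adjusted p = 0.00749) and WNT2B (-0.99 ± 0.23, adjusted p = 0.01) lower while RSPO3 was higher. Of the 16 complement genes CFB, CFI and C3 were called lower, at -1.44 ± 0.35 (adjusted p = 0.0115), -1.10 ± 0.29 (adjusted p = 0.0172) and -1.03 ± 0.35 (adjusted p = 0.046), C3 losing its call in 13 of 24 fits without 1 animal. Without T+WSD8 the Wnt count was 4, as it was without T+WSD10, and the complement count 1. Outside the batch 0 genes of these 3 lists were called lower, with 7 keratin or junction genes, 8 Wnt genes and 2 complement genes at an unadjusted p below 0.05 downward and medians of -0.89, -0.40 and -0.18.

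The mesothelial level moved with the group in these animals. The mean log2 CPM of the 11 markers was 2.74 to 5.32 in T+WSD and 4.23 to 7.67 in the other 18. With that mean as a covariate the comparison with the 3 groups called 0 genes in edgeR. In that fit 1033 of 15207 genes had an unadjusted p below 0.05, against 4795 (31.5%) without the covariate. How many of the 1033 were among the 4795 was not counted. The 6 genes apart from every group kept most of their size in that fit, from 2.003 for CCDC136 and 1.04 for SEMA5B to 0.72 for FTL, with adjusted p of 0.448, 0.251 and 0.252. The median of the lipid-associated macrophage list was 0.91 there, that of cholesterol synthesis -0.40, and those of the keratin, Wnt and complement lists -0.14, 0.20 and 0.13. Since the covariate differs with the treatment, the share of the treatment and that of the mesothelial content cannot be told apart in it.

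**Figure D4:**
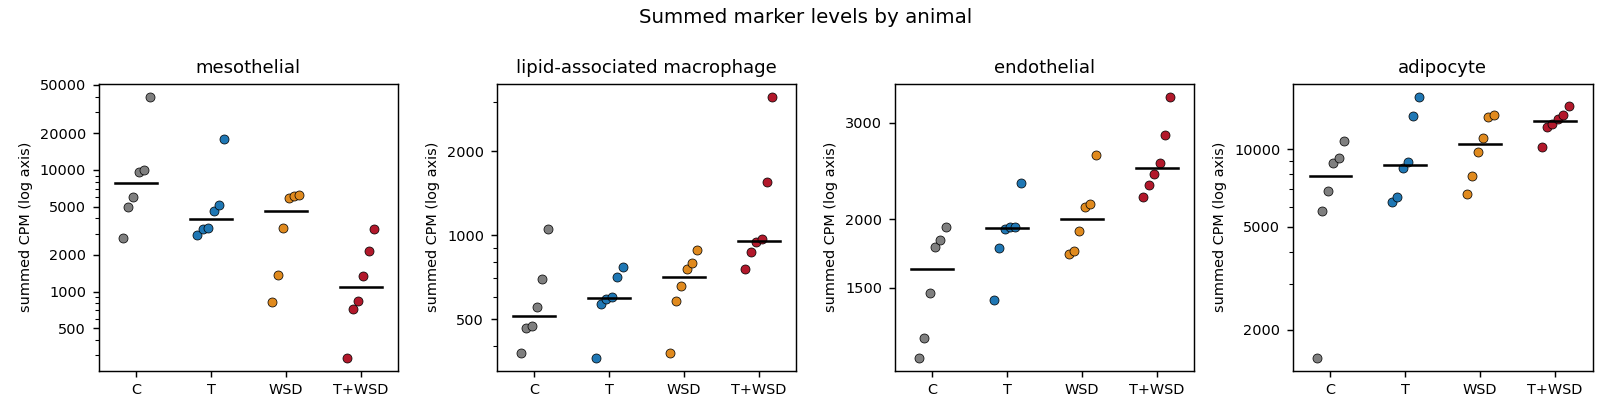
Summed CPM of the members matched by symbol of 4 marker lists on log axes, with 1 point per animal and a bar at each group's median. The mesothelial sum is lowest in T+WSD (median 1092), the other 3 sums have their highest median in T+WSD, and every panel has animals of other groups inside the T+WSD range.

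All 16 tested genes of cholesterol synthesis had negative log2 fold changes, and 7 were called lower and 0 higher (median -0.55). Beside TM7SF2 the called genes with the smallest p-values were FDPS, the farnesyl diphosphate synthase, at 29.03 to 39.5 against 29.1 to 81.8 CPM (-0.59 ± 0.18, adjusted p = 0.0277), MVD, the mevalonate diphosphate decarboxylase (-0.86 ± 0.26, adjusted p = 0.0283), and ACAT2, an acetyl-CoA thiolase (-0.82 ± 0.25, adjusted p = 0.0289). TM7SF2 alone kept its call in every fit without 1 animal. The list's count ran from 1 (without T+WSD8, T+WSD9 or T+WSD10) to 7, and it was 2 without T+WSD7 or T+WSD12 and 4 without C2, C4, C5, T13, WSD24 or T+WSD11. Upper-quartile scaling left 14 of 16 negative and 4 called. Outside the batch all 16 were negative with a median of -0.54, and 1, TM7SF2, was called. The median against WSD was -0.78, against T -0.46 and against C -0.57.

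Genes of mitochondrial respiration and protein quality control shared 1 direction at small folds. All 21 tested nuclear-encoded subunits of the respiratory chain had negative log2 fold changes (median -0.39), 4 with an adjusted p below 0.05 and 1 called, CYC1, the cytochrome of complex III, at 94.98 to 127 CPM against 84.8 to 340.3 (-0.69 ± 0.20, adjusted p = 0.0225). That call was lost without T+WSD7, T+WSD8 or T+WSD10. All 8 subunits of the chaperonin TRiC were negative under every scaling (median -0.26), 4 at an adjusted p below 0.05, among them CCT4 at 104 to 121 CPM against 114 to 185 (-0.39 ± 0.08, adjusted p = 0.0055). Of 27 proteasome subunits 26 were negative, or 22 with upper-quartile scaling, and 5 had an adjusted p below 0.05, PSMD8 the first (-0.32 ± 0.09, adjusted p = 0.02). Prohibitins and mitochondrial chaperones, 10 in all, were negative (9 in the other scalings), led by PHB2 (-0.42 ± 0.10, adjusted p = 0.00927). No TRiC, proteasome or prohibitin gene passed the fold of 1.5 in edgeR or DESeq2, and 7 of 8, 14 of 27 and 5 of 10 had an unadjusted p below 0.05.

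The lists of the preceding genes differed most from WSD. The median of the respiratory chain list was -0.70 against WSD, -0.29 against T and -0.19 against C, and 13 of its 21 genes had an unadjusted p below 0.05 among C, T and WSD themselves. Of the cytokine MIF and its relatives, DDT, the MIF homologue, measured 24.9 to 40.6 CPM in T+WSD and 32.8 to 99.9 in the rest (-1.03 ± 0.21, adjusted p = 0.00416), and MIF had -0.91 ± 0.24 (adjusted p = 0.0162), a call lost without T+WSD8. These were the 2 called of 6 tested, and outside the batch 0 were called, 2 being lower at an unadjusted p below 0.05.

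Few adipocyte lipid genes were called. Of 13 genes of lipogenesis and triglyceride synthesis, 0 were called by edgeR and 1 by DESeq2, and 3 had an unadjusted p below 0.05. The median of these 13 was -0.03 against C, 0.11 against T and -0.86 against WSD. Among C, T and WSD themselves 7 had an unadjusted p below 0.05. FASN, the fatty acid synthase, spanned 1585 to 4259 CPM in T+WSD and 190.0 to 30577 in the other 18, with a log2 fold change of -1.49 ± 0.52 (adjusted p = 0.0545) that missed the threshold. Fatty acid oxidation and the TCA cycle had 0 of 19 called by either tool, 4 with an unadjusted p below 0.05 and 17 negative. The median of these 19 was 0.05 against C, -0.18 against T and -0.43 against WSD. Among C, T and WSD themselves 8 had an unadjusted p below 0.05. Cholesterol efflux had 0 of 13 called, with 4 at an unadjusted p below 0.05, and glycolysis 0 of 14 in edgeR and 1 in DESeq2, with 3 at that p. Lipid droplet proteins had 1 of 10 called, PLIN3 (0.95 ± 0.20, adjusted p = 0.00509), and lipolysis had 1 of 11, the natriuretic peptide clearance receptor NPR3 (1.89 ± 0.51, adjusted p = 0.0172).

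Leptin was higher and omentin lower. LEP measured 592 to 1576 CPM (median 1349.8) in T+WSD, 4.39 to 673 CPM (median 272) in C, 42.9 to 815 CPM (median 166) in T and 205 to 1568 CPM (median 509) in WSD. The C6, T14, WSD21, WSD22 and WSD23 animals lay inside the T+WSD range, and the log2 fold change was 1.79 ± 0.54 (adjusted p = 0.0289), a call lost without T+WSD7, T+WSD8, T+WSD9 or T+WSD10. Omentin, ITLN1, had -2.34 ± 0.71 (adjusted p = 0.03), lost without T+WSD7, T+WSD8, T+WSD10 or T+WSD12, and RARRES2 (chemerin) had -0.86 ± 0.20 (adjusted p = 0.00948). The adipokine list gave 1 higher and 2 lower of 11 (0 outside the batch), and insulin signalling 1 higher of 18, the phosphatidylinositol kinase subunit PIK3R1 (0.60 ± 0.16, adjusted p = 0.0175, lost in 9 of 24 fits).

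Calcium release channels and pumps had 4 of 16 called higher and 0 lower, and 2 had an unadjusted p below 0.05 downward. The ryanodine receptor RYR2 measured 7.999 to 18.9 CPM (median 11.4) in T+WSD against 0.956 to 8.95 CPM (1.78 ± 0.32, adjusted p = 0.00215), with RYR3 at 1.51 ± 0.39 (adjusted p = 0.014), RYR1 at 0.62 ± 0.17 (adjusted p = 0.0212) and the pump ATP2A1 at 2.74 ± 0.79 (adjusted p = 0.024). Without T+WSD10 the count was 2, and outside the batch it was 0, with 4 higher at an unadjusted p below 0.05. Titin, RYR1 and ATP2A1 are also skeletal muscle genes, and after their values were seen 6 other tested muscle genes were read. CKM (log2 fold change 2.91 ± 0.98, adjusted p = 0.0477) and TNNT3 (0.85 ± 0.20, adjusted p = 0.0104) were called higher and ACTA1, MB, TNNI2 and TNNC2 were not. Their sum was 32.5 to 90.7 CPM in T+WSD, highest in T+WSD10, and 16.8 to 55.1 in the others, and the part of muscle cells in the titin result was not tested.

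Steroid-responsive genes were called at a share near that of all genes. Of 14 genes of the androgen and glucocorticoid receptors and their responses 1 was called higher, the steroid sulfatase STS, at 33.5 to 68.99 CPM (median 44.9) in T+WSD, 13.1 to 55.4 CPM (median 41.9) in WSD and 4.55 to 20.03 CPM (median 16.5) in C (1.11 ± 0.27, adjusted p = 0.0121), and its difference from WSD was 0.33 (adjusted p = 0.642). Interferon-stimulated genes had 1 of 22 called lower, OAS1 (-0.69 ± 0.22, adjusted p = 0.0359, lost without T+WSD7, T+WSD8, T+WSD10 or T+WSD11), and cell division genes 0 of 21 in edgeR and DESeq2, with 1 at an unadjusted p below 0.05. All 5 immediate early genes, which respond to handling of tissue, were negative (median -0.69), 0 called by either tool and 1 at an unadjusted p below 0.05. Their sum was 44.6 to 86.9 CPM in T+WSD, 65.4 to 105 in C, 38.6 to 279.5 in T and 29 to 294 in WSD, and its part in the results was not tested.

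A few calls rested on very few animals or counts. ALB, the liver's albumin, had 0, 0, 30, 31, 41 and 798 counts in the 6 T+WSD animals and 0 to 43 in the others, and its call (log2 fold change 4.33 ± 0.79, adjusted p = 0.00215) was lost without T+WSD11, the animal with 798. The other tested gene of that list, SERPINA1, was not called. AHSP, which stabilizes hemoglobin alpha chains, was lower (-2.12 ± 0.65, adjusted p = 0.0316) at 0 to 0.548 CPM against 0.136 to 5.74, lost when any 1 T+WSD animal was left out, while the other 2 erythroid genes tested, HBA2 and ALAS2, were not called.

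The remaining lists held few calls. Lysosomal hydrolases and membrane proteins had 1 of 22 called higher, CTSZ, a cathepsin (0.60 ± 0.16, adjusted p = 0.017, lost in 10 of 24 fits), and 5 at an adjusted p below 0.05. V-ATPase subunits (14 tested), fatty acid uptake (13), chaperones of the endoplasmic reticulum (16) and Schwann cell markers (3) had 0 called by edgeR, with 3, 3, 2 and 0 at an unadjusted p below 0.05 and 0, 1, 0 and 0 called by DESeq2. Fibroblast and progenitor markers had 1 higher, DPT (0.72 ± 0.22, adjusted p = 0.0336), and 1 lower, DPP4 (-1.53 ± 0.50, adjusted p = 0.0428), of 10, lost in 4 and 10 of the 24 fits. No pancreas gene passed the count filter.

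**Figure D5:**
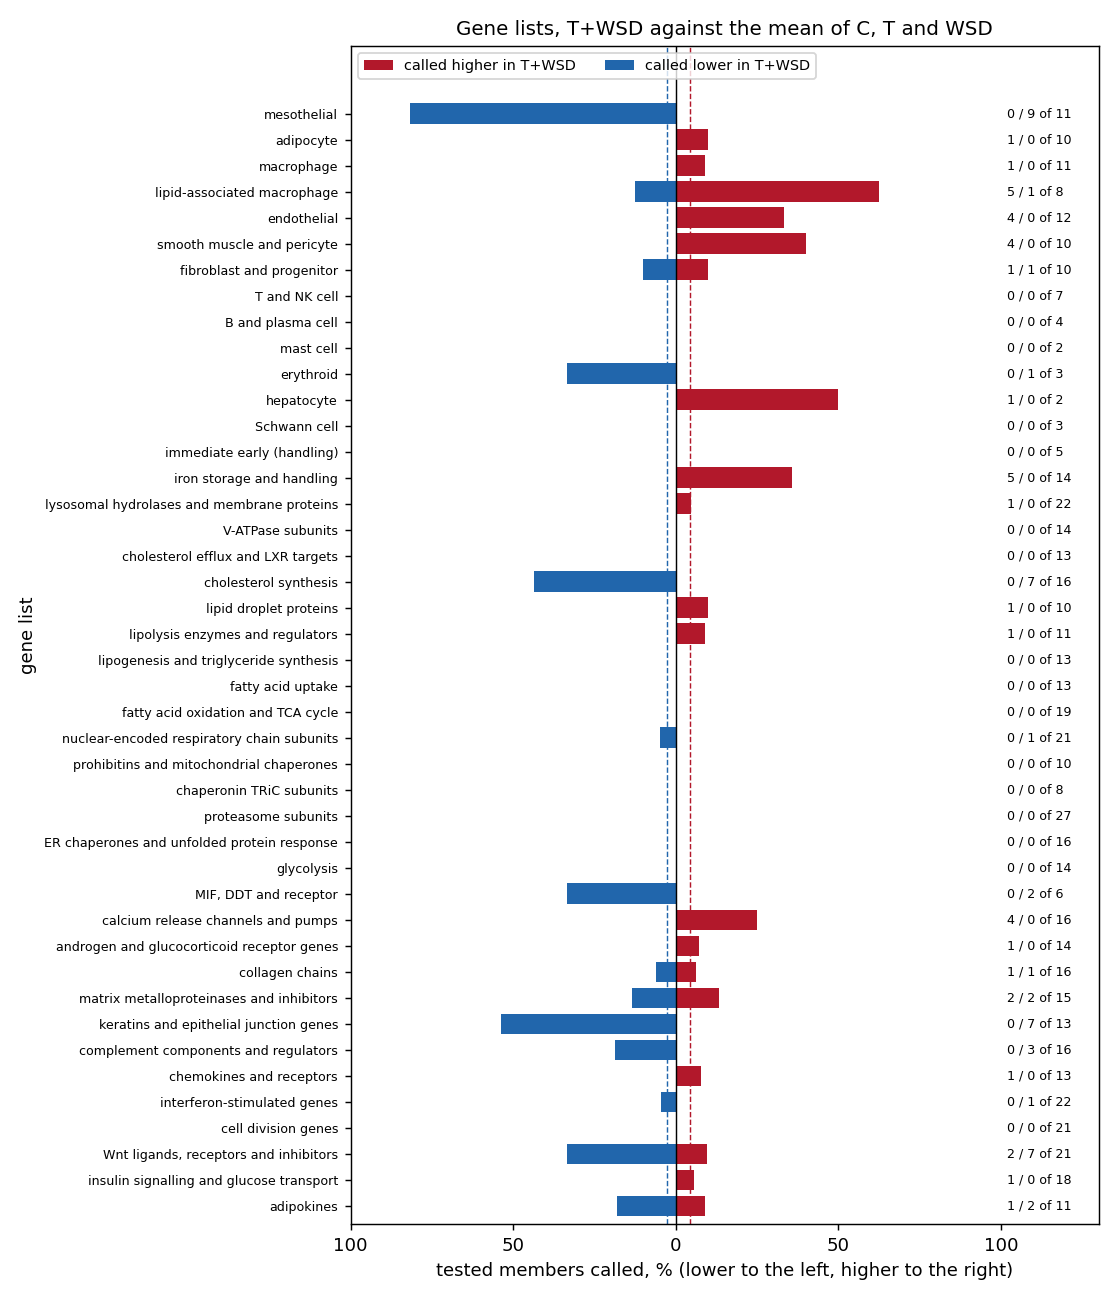
Share of tested members called higher (right, red) or lower (left, blue) in T+WSD against the mean of C, T and WSD for 43 gene lists, with the counts (higher / lower of tested) at the right edge and dashed lines at the shares over all genes, 4.27% and 2.79%. The longest bars are mesothelial markers on the left, 9 of 11, and lipid-associated macrophage markers on the right, 5 of 8.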

How the data were processed

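Total RNA of omental biopsies from 24 female macaques was sequenced after ribosomal RNA depletion, with single reads. Per the submitters' processing notes and the study's methods, the authors checked reads with FastQC 0.11.5, trimmed them with Trimmomatic 0.36, aligned them to the macaque genome rheMac8 with STAR 2.5.2b, and used DESeq2 1.18.1 for their own tests. The deposited table holds the authors' raw counts, 1 column per animal, for 32386 Ensembl gene identifiers. The counting tool, its strand setting and the annotation version are not given in the sources used here, so reads of overlapping or antisense genes cannot be told apart. Symbols matched 17621 identifiers.

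Genes were kept by edgeR's filterByExpr (minimum count 10, minimum total 15), which left 15207. One quasi-likelihood model of the 4 groups (edgeR 4.0.16 in R 4.3.3, TMM, robust) gave T+WSD minus the mean of C, T and WSD, each pairwise contrast, and a test of C, T and WSD among themselves, with Benjamini-Hochberg adjustment over all genes tested, two-sided. Genes were called at an adjusted p below 0.05 and a fold above 1.5. The standard error is the log2 fold change divided by the square root of F. DESeq2 1.42.0 was an alternative, and the script was tested on simulated data. No sample pair within a group held identical values (0 of 60 pairs). The libraries have no molecular identifiers, so counts carry counting error and amplification error that cannot be separated.

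Named genes were those apart from every group, filled to 12 per direction with the smallest p-values of genes called with the same sign against each group, the up to 4 called genes per list with the smallest p (or 1 member where none was called), the 5 non-overlapping genes per direction with the smallest p, and the gene with the most counts. One gene that the rule named is counted in the totals and not reported here. The 44 lists named 661 genes, of which 549 matched and 523 were tested. Groups, members and lists were chosen with earlier results of these data known. The 8 batch libraries are defined by 1 gene exceeding 5% of the counts, and not by any label. The fit on the batch libraries alone, the list counts under the alternatives and the skeletal muscle list were chosen after seeing the data.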

Additional observations from a re-analysis of the deposited data

Results flagged for a closer look

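The effect of testosterone differed between the diets for 6 of the 101 named genes, by edgeR's quasi-likelihood test of the interaction of testosterone and diet with an adjusted p below 0.05, and for 44 of all 15207 genes. On the log2 scale the interaction was 3.16 for CCDC136, 1.05 for INPP5F and 0.99 for ABCC5, so T+WSD exceeded the sum of the effects of T and WSD alone. It was -1.75 for TM7SF2, -0.55 for RSL1D1 and -0.46 for PRPF31, where T+WSD lay below that sum. This test uses the same 6 T+WSD libraries as the comparisons of the report and is not independent of them.

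Of 164 sets of 6 animals examined, 11 held an animal far from the other 5, judged by the gap to its neighbour as a share of the group's range against Dixon's 95% critical value, and chance gives about 1 in 20. In T+WSD the lowest animal, T+WSD12, stood apart for INPP5F (0.645) and NRCAM (0.640), and T+WSD8 was lowest for the sum of pancreas genes (0.838), of which none passed the count filter. That sum was 0 CPM in T+WSD8. Marker sums were compared on the log2 scale after adding 0.01, so the size of this gap depends on the added value. In the other groups T15 was highest for INPP5F (0.685) and lowest for ZSCAN12 (0.642), T13 was lowest for PRPF31 (0.639), and WSD21 was highest for STMN2 (0.823). Among the marker sums T18 was highest for mesothelial (0.684) and mast cell genes (0.766), T16 lowest for smooth muscle and pericyte genes (0.731), and C1 lowest for adipocyte genes (0.677).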

How the results depend on the processing

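No paired analysis was possible because the 4 groups share no replicate numbers. Counts of genes called against the mean of the 3 groups, C, T and WSD, in that order, were 2330, 2603, 988 and 254 with no fold threshold, and 524, 840, 340 and 53 at a fold above 2. Without the library batch they were 130, 78, 308 and 0, and in the batch libraries alone 3, 0, 0 and 0. With the mesothelial mean as a covariate they were 0, 0, 0 and 1. DESeq2 called 1090 genes against T and 431 against WSD, no filter on low counts gave 68 against WSD, and at least 10 counts in every animal gave 671 against the mean. The 6 genes apart from every group became 61 with DESeq2, 11 with legacy=FALSE, 3 with the batch as a covariate or a fold above 2, and 0 with no filter, outside the batch, within it or with the mesothelial covariate. The 7 genes differing among C, T and WSD became 4 with upper-quartile scaling or 10 counts in every animal, 2 without the top gene or the filter, 1 outside the batch or with the mesothelial covariate, and 0 within the batch. Without TMM, 2 genes did not overlap upward and 0 downward. Leaving out 1 animal gave 656 (T+WSD8) to 1338 (WSD21) against the mean, 900 (C1) to 1790 (C5) against C, 238 (T+WSD10) to 828 (C1) against T, 9 (WSD24) to 448 (WSD21) against WSD, 0 to 24 (WSD21) apart from every group, 0 (T15) to 27 (WSD19) among the 3 groups, and 50 to 95 upward and 30 to 91 downward without overlap. With the mesothelial covariate the sign turned for UPK3B (0.24), CD9 (0.031), DPP4 (0.40), MS4A1 (-0.21), COL8A1 (0.10), TIMP1 (0.40), CFB (0.13), CFI (0.069), C3 (0.39), ITLN1 (0.50) and ENSMMUG00000038258 (-2.85), the last also without T+WSD8 (-0.60, and up to 1.69 without another animal). Outside the batch 43 of the 101 named genes kept their direction and side of the threshold and 58 lost the call. Apart from the constructions named (fewer animals, fewer genes, another threshold), the cause was not tested. T+WSD8, with 54.7% of its 6899185 counts in 1 gene, limits the depth of its group most.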
